A study of Mus musculus with 8 samples.

Results

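Lymphatic endothelial cells of the mouse small intestine were described from 347 barcodes of a sorted single-cell RNA library. A barcode was taken as 1 of these cells when it held at least 500 detected genes, at most 20% mitochondrial transcripts, at least 3 transcripts of Mmrn1 and 0 of Cd79a. Mmrn1 encodes multimerin 1, a secreted glycoprotein made by lymphatic endothelium, and Cd79a encodes a B cell receptor subunit. The library listed 8842 barcodes, of which 2756 passed the limits on genes and mitochondrial transcripts, so the 347 cells were 12.6% of the kept barcodes (exact binomial interval 11.4% to 13.9%). The other 2409 kept barcodes were the main comparison. The cells were selected on their own measured transcripts of Mmrn1 and Cd79a, so every comparison of these cells with the other barcodes of their library is a description and carries no test.

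Lymphatic vessels of the intestine begin as blind-ended lacteals in the villi and as capillaries around the crypts, and they drain into collecting vessels with valves. They take up interstitial fluid, migrating immune cells and the lipid particles that enterocytes release after a meal. Their endothelium is specified from venous endothelium by the transcription factors Sox18, Nr2f2 and Prox1, and it is kept and grown by signalling of vascular endothelial growth factor C through its receptor Flt4. In the intestine these vessels lie close to the stem cells of the crypts and have been studied as a source of secreted factors for them.

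The series holds 8 mouse libraries, 4 of single cells and 4 of Visium sections, with 28486 barcodes in all. The library described here and its large intestinal counterpart came from digested tissue that was processed separately for each intestine, with 1 library each. The label of the library names the strain C57BL/6, the series text names C57BL/6 and Lgr5-eGFP-ires-CreERT2 mice (C57BL/6 background) for the sort, and the labels give neither their ages nor how many animals were pooled. Living cells (50000), LGR5-positive stem cells (50000) and CD31, PDPN and LYVE1-positive lymphatic cells (20000 to 25000) were sorted, so the shares of cell types in these libraries are set by the sort, and Pecam1 (CD31), Pdpn and Lyve1 were part of how the cells were enriched. The small intestinal Visium sections were 10 µm cryosections of C57BL/6 tissue in technical duplicate.

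The small intestinal library held 78482770 unique molecular identifiers (UMIs, each counting 1 captured transcript). The limit on mitochondrial transcripts removed 5497 barcodes, and 101 barcodes removed by the limits would have met the rule on Mmrn1 and Cd79a. The 347 cells held 876 to 136095 UMIs (median 3618), and the other kept barcodes had a median of 17955. The small and large intestinal libraries shared 25 barcodes, and 1 of the 347 was among them. UMIs of a group of barcodes were summed and scaled to a total of 1000000, which gives the levels in CPM used below, and ratios are log2 ratios of these levels. Intervals in parentheses are 95% intervals of counting error only, without spread between animals. With 1 library, p-values between groups of animals cannot be had. In sums over cells, fewer expressing cells and less RNA per cell cannot be told apart, so shares of cells with a UMI are given beside levels.

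The markers of lymphatic endothelium were present in most of the cells. Lyve1, Flt4, Reln, Prox1 and Ccl21a, none of which the rule used, were each seen in 85.3% to 97.1% of the 347 cells. Clustering of all kept barcodes placed 334 of them in 2 clusters whose leading genes included lymphatic genes such as Ccl21a and Reln, called lymphatic endothelial-like. The other 13 lay elsewhere: 6 with macrophage or dendritic-like cells, 3 with goblet-like, 2 with Paneth-like, 1 with tuft-like and 1 with glia or neuron-like cells. The 2 Paneth-like barcodes held 94757 of the 101399 UMIs of the Paneth cell defensin gene Defa24 and 15.1% of all UMIs of the 347 cells. The 8 Paneth marker genes were all detected and took a median of 0.589% of a cell's UMIs (0.116% to 63.0%), against 0.395% in the other barcodes and 0.499% in Cd79a-positive ones. In the 334 cells, 2 of 7 T, NK or innate lymphoid genes were detected (2.31 CPM in sum, with Cd3e, Cd3d, Trbc2, Nkg7 and Gzma at 0), 3 of 6 B cell genes (4.61 CPM, with Cd79b and Fcer2a at 0 and Cd79a at 0 by the rule) and 4 of 6 plasma cell genes (709 CPM, with Derl3 and Tnfrsf17 at 0, against 10410 CPM in the other barcodes). Values are therefore given for the 347 cells and, where they differ, for the 334 cells inside the lymphatic clusters.

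The threshold of 3 Mmrn1 UMIs cut through a sparse stretch of the distribution. The cells held 3 to 63 Mmrn1 UMIs (median 19). Exactly 3 were found in 16 cells, of which 12 lay in the lymphatic clusters. Just outside, 23 kept barcodes held 2 UMIs and 9 of these lay in the lymphatic clusters. A single Mmrn1 UMI was found in 196 barcodes, 5 of them in the lymphatic clusters, and these barcodes were deep (median 28678 UMIs). Lyve1 was at 255 CPM in the cells with 3 Mmrn1 UMIs and at 38.2 CPM in the barcodes with 2. Barcodes outside the lymphatic clusters set much of that gap: inside those clusters, Lyve1 was at 2454 CPM in the 12 cells with 3 and at 1800 CPM in the 9 barcodes with 2.

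Counts of each marker were compared after every barcode was thinned to 1000 UMIs, which kept 338 of the 347 cells. Mmrn1, the gene of the rule, ranged from 0 to 16 UMIs (median 5). Lyve1, the hyaluronan receptor that guides cell entry into lymphatics, ranged from 0 to 13 (median 4) and was seen in 93.5% of cells. Reln, which encodes the secreted glycoprotein reelin, ranged from 0 to 10 (median 2) and was seen in 82.0%. The chemokine Ccl21a, which draws dendritic cells and T cells into lymphatic vessels, had a median of 2 and the widest range, 0 to 18. Flt4 was seen in 74.0% and Prox1 in 53.0% of cells. A floor of between 0 and 1.42% for these markers was read in 351 Cd79a-positive barcodes (median depth 3129 UMIs), which should lack them. These barcodes held at least 3 Cd79a UMIs and were chosen with 0 Mmrn1 UMIs. Their Mmrn1 value was thus fixed, and the floor of the other markers may be too low. The part of free RNA in this floor was not tested. The 5 markers that the rule did not use were seen in 53.0% to 93.5% of the lymphatic cells, whose median depth was 3618 UMIs.

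**Figure D1:**
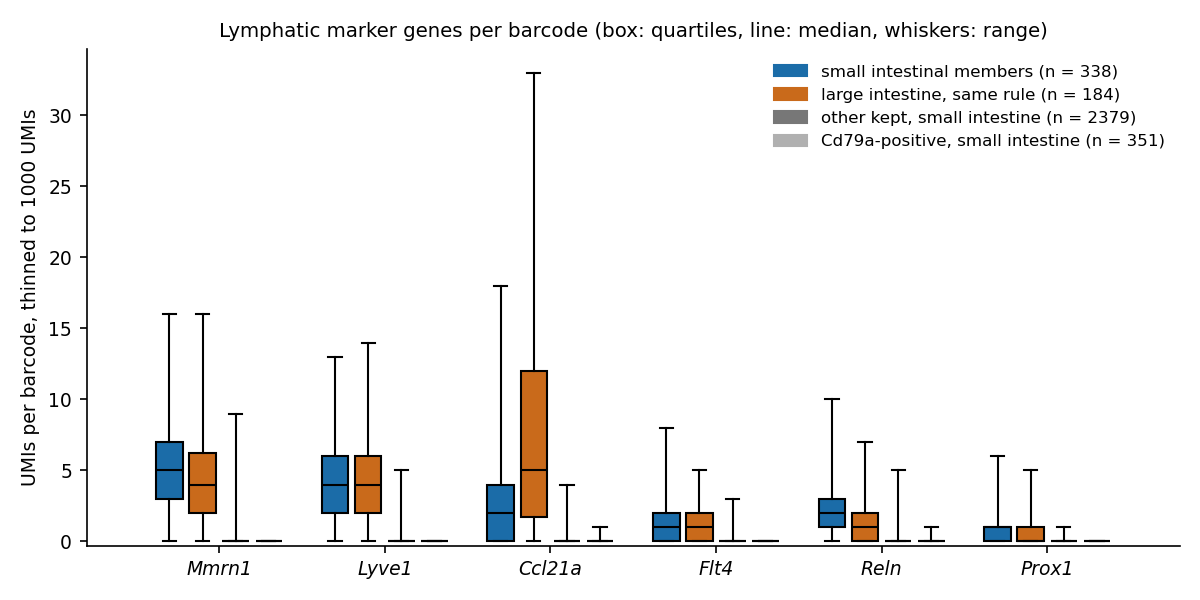
UMIs per barcode (y axis, after thinning to 1000 UMIs) of 6 lymphatic genes in the small intestinal cells, in large intestinal cells of the same rule, in other kept barcodes and in Cd79a-positive barcodes, with boxes at quartiles, a line at the median and whiskers over the whole range. Boxes of the other and Cd79a-positive barcodes lie at 0 for each gene, and Ccl21a has a median of 2 UMIs in the small and 5 in the large intestinal cells. The Cd79a-positive barcodes were chosen with 0 Mmrn1 UMIs.

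Across the transcriptome, 8733 genes reached a mean of 10 CPM over the cells and the other kept barcodes. Of these, 1227 (14.1%) were at least 4-fold higher in the lymphatic cells and 661 (7.57%) at least 4-fold lower. A gene can reach that mean through 1 group alone, and the rule used this contrast, so nothing is read from the size of these counts. The same holds for the gene lists below: a gene nearly absent from the other barcodes is measured through the lymphatic cells alone and had to be higher, so their counts and medians over measured genes are descriptions. Higher genes made up 65.0% of those past 4-fold, but 51.7% when each barcode's CPM was averaged and 47.8% with median-of-ratios scaling. The median log2 ratio over all measured genes was 0.30, and -0.28 with median-of-ratios scaling, which lowers every ratio by the distance between these 2 medians. With the 334 cells alone, 1541 genes were higher and 820 lower, and the median was 0.53.

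The gene with the highest ratio was Ackr2, an atypical chemokine receptor that scavenges inflammatory chemokines without signalling. It had 117 UMIs in the lymphatic cells, spread over 86 of them, and 3 in the other 2409 barcodes, a log2 ratio of 10.24 (8.65 to 12.53). Adgrg3, an adhesion-type G protein-coupled receptor, was at 597 CPM against 0.963 CPM, a log2 ratio of 9.28 (8.87 to 9.72). Ccl21a was at 2285 against 3.80 CPM (9.23), and Gpr182, another atypical chemokine receptor, at 157 against 0.328 CPM (8.91). The chemokine and chemokine receptor genes thus made up 3 of the 15 highest ratios. Nearly all UMIs of the Ccl21 family (3835, beside 2 of Ccl21b) were assigned to 1 of several near-identical gene copies, so the copy that gave them is uncertain.

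The remaining genes of the 15 were of several kinds. Hoxd9, a homeobox factor of posterior body position, had 72 against 3 UMIs (9.54, 7.93 to 11.85), and Tbx1, a T-box factor needed for lymphatic development, had 300 against 22 UMIs (8.72, 8.10 to 9.42). The endophilin gene Sh3gl3 (9.13) acts in vesicle uptake at the membrane, Apba2 (8.99) encodes a neuronal-type adaptor protein, and Galnt18 (8.70) encodes a glycosylating enzyme. Wnt2, a ligand of the Wnt pathway that sustains crypt stem cells, was at 157 against 0.366 CPM (8.75). Susd4, a complement regulator, had 47 against 0 UMIs, a log2 ratio of at least 8.92 with the 0 set to 3. Ube2ql1 (66 against 3 UMIs, 9.41, 7.80 to 11.72) and the lipoxygenase gene Alox12e (47 against 1 UMI, 8.92, 7.96 to 15.84) also had few UMIs in the other barcodes. Mmrn1 itself (9.16) and Lyve1 (8.69) completed the 15.

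The lowest ratios were led by B and plasma cell genes. The immunoglobulin light chain genes Iglv1 (-5.84, -9.47 to -4.57), Iglc2 (-5.18) and Iglc3 (-5.12), the heavy chain gene Ighg1 (-4.88) and the joining chain gene Jchain (-4.88) were among the 10 lowest, with the lymphoid surface gene Ly6d (-5.68, -9.31 to -4.41). Cd79a (-5.21) was set to 0 by the rule. The hormone gene Gip of enteroendocrine cells (-5.06), the epithelial secretory gene Reg1 (-4.90) and Mgp (-4.89, -7.17 to -3.34), a matrix gene of mesenchymal cells, were the others. Among them, Gip and Reg1 are reversed when 1 Mmrn1 UMI is enough to enter the group, with log2 ratios of 0.27 and 0.42.

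All 15 genes of the lymphatic identity list were measured and at least 4-fold higher, with a median log2 ratio of 7.26 against 0.30 over all genes. The list was drawn up with the cells' markers known, and it holds the gene of the rule and 2 genes of the sort. Among the others, the specifying factors were Prox1 at 599 CPM (ratio 6.13), Nr2f2 at 732 CPM (5.92) and Sox18 at 110 CPM (7.31). The co-receptor Nrp2, which binds vascular endothelial growth factor C beside Flt4, was at 1027 CPM (7.32). Maf, a transcription factor of maturing lymphatic vessels, had the smaller ratio of 3.47, with 389 CPM in T, NK or innate lymphoid-like cells. Clca3a1, a calcium-activated chloride channel regulator, was the lowest of the list at 22.0 CPM and 7.78% of cells (2.24, 1.70 to 2.74), and it was higher in blood endothelial-like cells (117 CPM). Median-of-ratios scaling left 14 of the 15 past 4-fold.

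Genes of all endothelium were as uniform. Of 17 listed, Pecam1 of the sort among them, 16 were measured and all 16 were higher (median 6.68). The receptor Kdr was at 761 CPM in 87.0% of cells (log2 ratio 7.20), the tight junction claudin Cldn5 at 664 CPM in 77.2% (8.55), the adherens junction cadherin Cdh5 at 385 CPM (6.76) and the sialomucin Emcn at 489 CPM (7.27). Esam, an endothelial adhesion molecule, was the exception, with 3 UMIs in the 347 cells. Blood endothelial genes were mostly absent: of 12 listed, Vwf, Ly6c1, Sox17, Aplnr and Esm1 had 0 UMIs, and Flt1 (4 UMIs), Plvap (16), Cd34 (6), Ackr1 (2) and Selp (4) stood below 10 CPM. The remaining 2 were not low. Gpihbp1, which anchors lipoprotein lipase to capillary walls, was at 399 CPM in 62.0% of cells and Cd300lg, a mucin-like adhesion receptor, at 102 CPM in 32.6%.

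**Figure D2:**
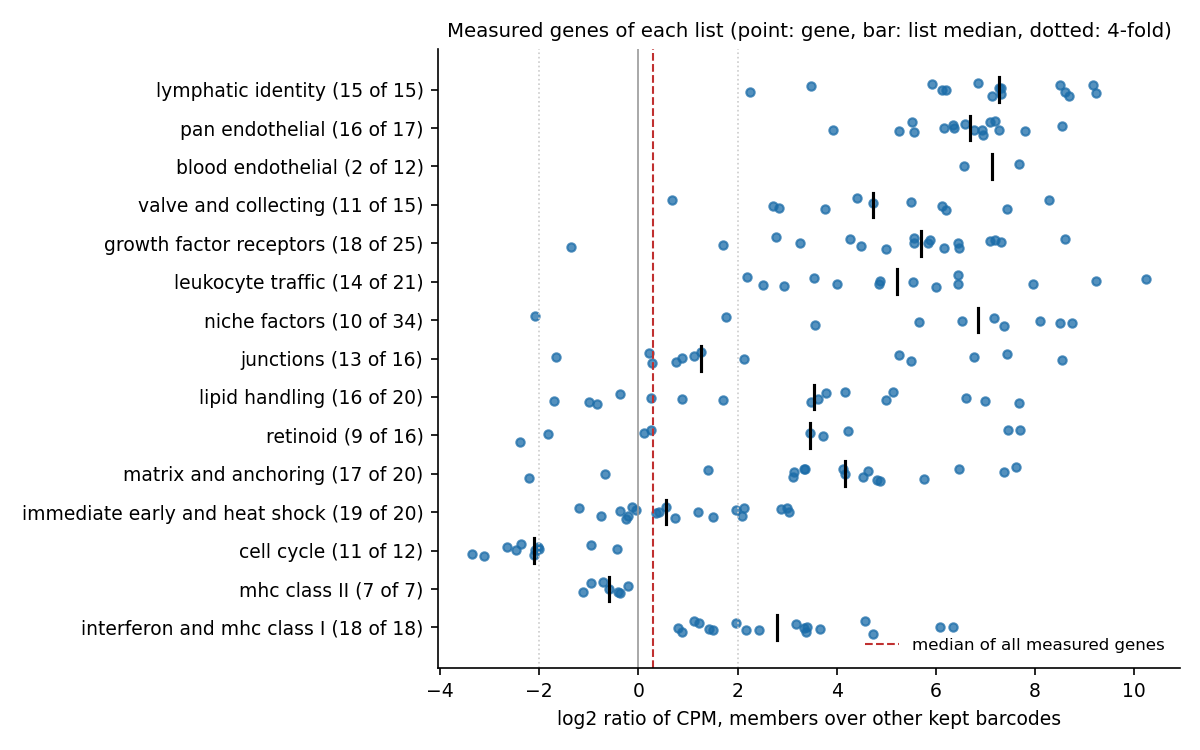
Log2 ratio of CPM, lymphatic cells over other kept barcodes (x axis), for every measured gene of 15 lists (y axis, with the number measured of the number listed), with a bar at each list's median, dotted lines at 4-fold and a dashed line at the median of all genes. The lymphatic and endothelial lists lie at the right (medians 7.26 and 6.68), and the cell cycle list lies at the left (-2.10).

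Receptors and ligands of vascular growth were read next. Of 25 listed genes 18 were measured, and 16 were higher (median 5.70). Besides Flt4 (1230 CPM), Kdr and Nrp2, the adrenomedullin receptor pair Calcrl (188 CPM, 5.83) and Ramp2 (384 CPM, 6.46) was present, as was the decoy receptor Ackr3 for the same peptide (118 CPM, 6.45). The orphan receptor Tie1 was at 251 CPM and the angiopoietin receptor Tek at 83.4 CPM. The Tek ligand Angpt2, which acts on lymphatic growth and valve formation, was at 99.5 CPM in 30.5% of cells. The Notch receptor Notch1 (324 CPM, 4.26) and its ligand Dll4 (101 CPM, 4.49) were both higher. Vegfc had 0 UMIs and Vegfd 1, so the ligands of Flt4 were at or near 0 in these cells.

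Of 21 genes that guide leukocytes 14 were measured, and these 14 were higher (median 5.21), while genes low in the cells, such as Vcam1 and Madcam1, mostly did not reach the level for measurement. Besides Ccl21a and Ackr2 they held the sphingosine-1-phosphate exporter Spns2 (98.9 CPM, 4.85) and receptor S1pr1 (329 CPM, 5.53), whose lipid keeps naive lymphocytes alive and moving. The lymphocyte survival cytokine Il7 was at 118 CPM in 36.6% of cells (6.01, 5.65 to 6.38). The scavenger and homing receptors Stab1 (666 CPM, 83.0% of cells) and Mrc1 (244 CPM, 52.2%) were shared with macrophage or dendritic-like cells, which held them at 252 and 329 CPM. The adhesion genes Vcam1 and Madcam1 had 2 UMIs each. With each barcode's CPM averaged, 11 of 15 measured genes of the list were higher (median 3.77).

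Of 34 secreted niche factors, 10 were measured, and 8 of these were at least 4-fold higher. Reln (chr5:21884454-22344705 in build GRCm38.p6) led by level at 1455 CPM and 96.8% of cells. Ntn1, the guidance factor netrin 1, was at 400 CPM (7.16), Il33, an alarm cytokine kept in nuclei, at 376 CPM (6.53) and Rspo3 (chr10:29453106-29535867), an R-spondin that amplifies Wnt signals at stem cells, at 263 CPM (7.38, 7.04 to 7.74). Sema3d, a guidance semaphorin, was at 191 CPM (8.10), the growth factors Tgfb2 and Tgfb1 at 197 and 155 CPM, and Wnt2 (chr6:17985474-18032772) at 157 CPM in 47.3% of cells. After thinning to 1000 UMIs, Rspo3 was seen in 29.9% and Wnt2 in 16.3% of cells, against 0 of 351 Cd79a-positive barcodes for both.

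The other niche ligands were low or not seen. Rspo1, Rspo2, Wnt2b, Nog, Chrdl1, Nrg1, Fgf7 and Fgf10 had 0 UMIs in the 347 cells, and Grem1, a bone morphogenetic protein antagonist, had 1. Wnt9b had 7 UMIs and Bmp6 had 12. Hbegf, an epidermal growth factor family ligand, was the 1 measured gene at least 4-fold lower (-2.09), and its 12 UMIs came from a single cell. The cells thus carried reelin, an R-spondin and a Wnt ligand among the stem cell factors of the list, and epidermal growth factor family ligands were near the limit of detection, with 2 UMIs of Areg and 1 of Ereg.

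Vessel structure genes showed 3 patterns. Among 15 genes of valves and collecting vessels, 11 were measured and 10 higher (median 4.74), including the gap junction genes Gja1 (208 CPM, 7.42) and Gja4 (34.0 CPM, 5.50). The valve factor Foxc2 was rare, with 19 UMIs in 5.19% of cells. Of 20 basement membrane and matrix genes 17 were measured, with 14 higher (median 4.17). Timp3, a metalloproteinase inhibitor, was at 2361 CPM in 97.1% of cells (7.37), the elastic fibre gene Ltbp4 at 760 CPM, the laminin chain Lama4 at 469 CPM, the collagen gene Col4a1 at 386 CPM and Emilin1, which anchors lymphatic capillaries to elastic fibres, at 121 CPM. Sparc was lower (-2.20). Of 16 junction genes 13 were measured and 6 were higher (median 1.25), while the adaptor gene Ctnnd1 (0.28), also used by epithelium, was close to the median of all genes.

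Genes of lipid handling were mixed. Of 20 listed 16 were measured and 9 were higher (median 3.54). The caveolin genes Cav1 (645 CPM, 6.99) and Cav2 (155 CPM, 6.61), the monoacylglycerol lipase gene Mgll (472 CPM, 4.99), Gpihbp1, the cholesterol exporter Abca1 (238 CPM, 5.14), the phosphatase Plpp3 (249 CPM, 3.62), the fatty acid binding gene Fabp4 (409 CPM, 3.78) and the lipase gene Lpl (107 CPM, 4.17) were among the higher. The other measured genes lay within 4-fold, among them the fatty acid binding gene Fabp5 (-1.70), the acyl-CoA synthetase gene Acsl5 (-0.99), the lipid droplet gene Plin2 (-0.84) and Cd36 (1.71). Apoe was carried by few cells, with 804 UMIs in 14.1% of the 347 cells but 147 UMIs in the 334 cells of the lymphatic clusters, so that its ratio of 0.87 became -1.21 with those 334 cells. The macrophage marker list moved with it: 7 of its 8 genes were detected in the 334 cells (Flt3 was at 0), and its summed share of a cell's UMIs reached 0.586% there, 2.18% in the 347 cells and 7.45% in the other barcodes.

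Retinoid genes were examined as a pathway. Retinoic acid, made from vitamin A, acts through nuclear receptors and is degraded by the Cyp26 enzymes. Of 16 listed genes 9 were measured, with 5 higher and 1 lower (median 3.46). Cyp26b1 (chr6:84571414-84593908), which degrades retinoic acid, was at 527 CPM in 68.3% of cells against 3.01 CPM in the other barcodes (7.45, 7.21 to 7.71). The receptor genes Rarb (76.3 CPM, 7.70, 7.0 to 8.48) and Rarg (28.6 CPM, 4.23) and the retinaldehyde reductase gene Dhrs3 (296 CPM, 3.46) were also higher. Aldh1a1, an enzyme that makes retinoic acid, was lower (-2.39), and its relatives Aldh1a2 and Aldh1a3 had 1 and 0 UMIs. The cells held transcripts of receptors and of the degrading enzyme, and few or no UMIs of these synthetic enzymes. Rara and Rxra were close to the median of all genes (0.11 and 0.26).

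Cyp26b1, Dhrs3 and Rarb are textbook targets of retinoic acid, and Rarb carries the best known response element, a direct repeat of the receptors' core hexamer spaced by 5 bases (DR5). Both strands of the 250 bases before each start site were searched for DR5 and for TGCGTG, the core site of the aryl hydrocarbon receptor, which controls Cyp1a1 and Cyp1b1. The stretches are RefSeq's, of build GRCm38.p6, and 12 of 15 genes looked up had one. DR5 was found before 1 Rarb start site, from position -53, in chr14:16575477-16575726 on the minus strand. The Cyp26b1 stretch, chr6:84593811-84594060 on the minus strand, is shown beside it because that gene headed the lymphatic genes that differed between intestines. Capitals mark the DR5 match.
Rarb: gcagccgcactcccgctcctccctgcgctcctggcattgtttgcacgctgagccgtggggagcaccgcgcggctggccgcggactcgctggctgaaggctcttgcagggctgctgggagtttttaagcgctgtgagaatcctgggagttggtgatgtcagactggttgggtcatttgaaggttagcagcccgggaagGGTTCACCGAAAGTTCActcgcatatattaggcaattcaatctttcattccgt
Cyp26b1: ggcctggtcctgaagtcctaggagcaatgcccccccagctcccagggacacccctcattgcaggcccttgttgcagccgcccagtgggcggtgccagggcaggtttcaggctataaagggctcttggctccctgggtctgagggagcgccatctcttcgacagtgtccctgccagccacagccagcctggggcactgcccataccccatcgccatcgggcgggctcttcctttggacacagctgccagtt
DR5 occurred in 29 of 32851 stretches of this length (0.0883%) and TGCGTG in 2257 (6.87%). Neither motif was in the stretches of Cyp26b1, Dhrs3, Cyp1a1 or Cyp1b1, and TGCGTG matched 2 times in a Rarg stretch and 1 time in that of Mmrn1. A match is a description of letters, and sites farther away were not searched.

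Interferon and class I antigen genes were higher in 11 of 18 (median 2.80), with Gbp2 at 289 CPM (6.34), Iigp1 at 370 CPM (6.09), Ifit3 at 52.4 CPM (4.56), Ifitm3 at 2215 CPM (3.65) and the class I gene H2-D1 at 1464 CPM (2.18). These guanylate binding, immunity-related and antiviral genes respond to interferons. Isg15 was seen in 39.5% and Ifit1 in 14.7% of cells, shares that depend on how many UMIs were captured as well as on spread among cells. Class II genes were not higher. Their 7 log2 ratios had a median of -0.59, and -1.81 with the 334 cells, and Cd74 had 996 UMIs in the 347 and 297 in the 334 cells. With each barcode's CPM averaged, all 7 were at least 4-fold lower.

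The cell cycle list was the only 1 of the 15 with most of its measured genes at least 4-fold lower, 9 of 11 (median -2.10). Mki67 was at 42.3 CPM in 4.32% of cells against 171 CPM, and Ccnb1 had 4 UMIs in all 347 cells. Immediate early and heat shock genes, which report handling stress, were higher in 5 of 19 (median 0.56), namely Ier3, Dusp1, Klf2, Klf6 and Hspa1b. The median of that list was -0.01 with median-of-ratios scaling and -0.40 with averaged CPM, and those scalings left 3 and 0 genes higher. Klf2, a factor of endothelium under flow, was at 214 CPM (2.87). Averaging each barcode's CPM also lowered the counts of other lists. Lipid genes were then higher in 7 of 16 with 1 lower (median 1.74), matrix genes in 11 of 18 with 2 lower (2.60), growth factor genes in 15 of 19 with 2 lower (4.18) and interferon and class I genes in 9 of 18 (2.13). Of 6 blood endothelial genes measured that way 2 were higher and 3 lower (-2.38), and 6 of 10 cell cycle genes were lower (-2.43). The 16 measured shared endothelial genes were all higher (4.81). Transcripts of the Lgr5 reporter (GFP) were 3 UMIs in 2 of the 347 cells and 195 UMIs in 97 other kept barcodes.

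Blood endothelial cells of the same library were the closest relatives. A rule of 0 UMIs of Mmrn1 and Cd79a and at least 3 of Flt1, Plvap and Cd34 together found 79 barcodes, but 34 of these lay in an unnamed cluster led by genes of smooth muscle and fibroblasts (Des, Dcn, Cnn1). Against all 79, 352 of 9379 genes (3.75%) were at least 4-fold higher and 780 (8.32%) at least 4-fold lower in the 347 cells, and fibroblast genes led the lowest, among them Dcn (-10.44) and Col3a1 (-9.15), a proteoglycan and a collagen. The 334 cells were therefore also set against the 39 barcodes of the blood endothelial-like cluster (145307 UMIs), where 230 genes were higher and 558 lower of 8792. Those 39 barcodes held 0 UMIs of Dcn and Col1a1. The values that follow are from that comparison, in which 3 UMIs of the cluster correspond to 20.7 CPM.

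Lymphatic identity genes came first. Reln and Prox1 had 0 UMIs in the blood endothelial cluster, giving log2 ratios of at least 6.49 and 5.21, and Mmrn1, on which the lymphatic cells were chosen, also had 0 (at least 8.0). Lyve1 had 1 UMI there against 5446 in the lymphatic cells (7.66, 6.77 to 14.55), and Ccl21a 1 against 3806 (7.15, 6.25 to 14.04). Flt4 was shared at a lower level, 68.8 CPM against 1569 CPM (4.51, 3.63 to 5.57). In all, 13 of 15 genes, Mmrn1 among them, were at least 4-fold higher. Sox18 was close to equal (-0.33, -0.93 to 0.32), and Clca3a1 was lower (-2.04). Genes outside the list were also among the 10 highest, such as Fgl2, a secreted immune regulator, at 1925 CPM against 0 UMIs, the fatty acid hydroxylase gene Cyp4b1 (5.52, 3.97 to 7.80), the matrix gene Prelp and the actin-binding gene Cald1.

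Of 17 shared endothelial genes, 16 lay within 4-fold (median -0.47, against -0.07 over all genes). Of all measured genes 2.62% were at least 4-fold higher and 6.35% lower, so the 16 are near that background. The shared genes were not all equal. The intervals of Tie1, Erg and Emcn included 0, and Kdr was at -0.39 (-0.61 to -0.16). Cldn5 was at 846 CPM in the lymphatic and 296 CPM in the blood endothelial cells, and the endoglin gene Eng was at 341 and 723 CPM. Pecam1 was at 498 CPM in the lymphatic and 1535 CPM in the blood endothelial cells (-1.62, -1.85 to -1.40). Esam was past 4-fold (-8.31, -10.61 to -6.72), and the junction genes Jam2 (-7.75 or lower, 0 UMIs) and Jam3 (-5.75, -8.15 to -3.97) were also at least 4-fold lower. All 3 encode immunoglobulin-type adhesion molecules of endothelial contacts. Of 12 blood endothelial genes 10 were lower. Ly6c1 had 0 against 305 UMIs (-9.83 or lower), Flt1 4 against 331 (-9.53) and Plvap 16 against 297 (-7.38), and these include the genes of the rule for the 79. Gpihbp1 was at 511 and 454 CPM (0.17, -0.20 to 0.56).

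Secreted and transport genes also divided between the endothelia. Rspo3, Wnt2, Ntn1 and Sema3d had 0 UMIs in the blood endothelial cluster (log2 ratios of at least 4.01, 3.27, 4.62 and 3.55) and Il33 had 2 (4.53, 3.26 to 8.17). Blood endothelial cells held more Cxcl12 (2037 against 90.7 CPM), Cd36 (1480 against 36.1 CPM) and Fabp4 (9876 against 525 CPM), which act in chemotaxis and fatty acid uptake. They also held more of the Notch ligand Jag1 (-2.31) and the flow factor Klf2 (-2.48). Cyp26b1 was within 4-fold in both, at 672 and 496 CPM (0.44, 0.09 to 0.81), whereas Rarb had 1 UMI in the blood endothelial cluster (2.21, 1.29 to 9.11). Of 18 interferon and class I genes, 0 were past 4-fold, where 2.62% of all genes were higher and 6.35% lower, so the 0 is near that background. Of 19 basement membrane and matrix genes 2 were higher and 6 lower (median -0.43). Of 14 genes of valves and collecting vessels 2 were higher and 3 lower (median 0.42). Depth limits these values, since the cluster held 39 barcodes.

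**Figure D3:**
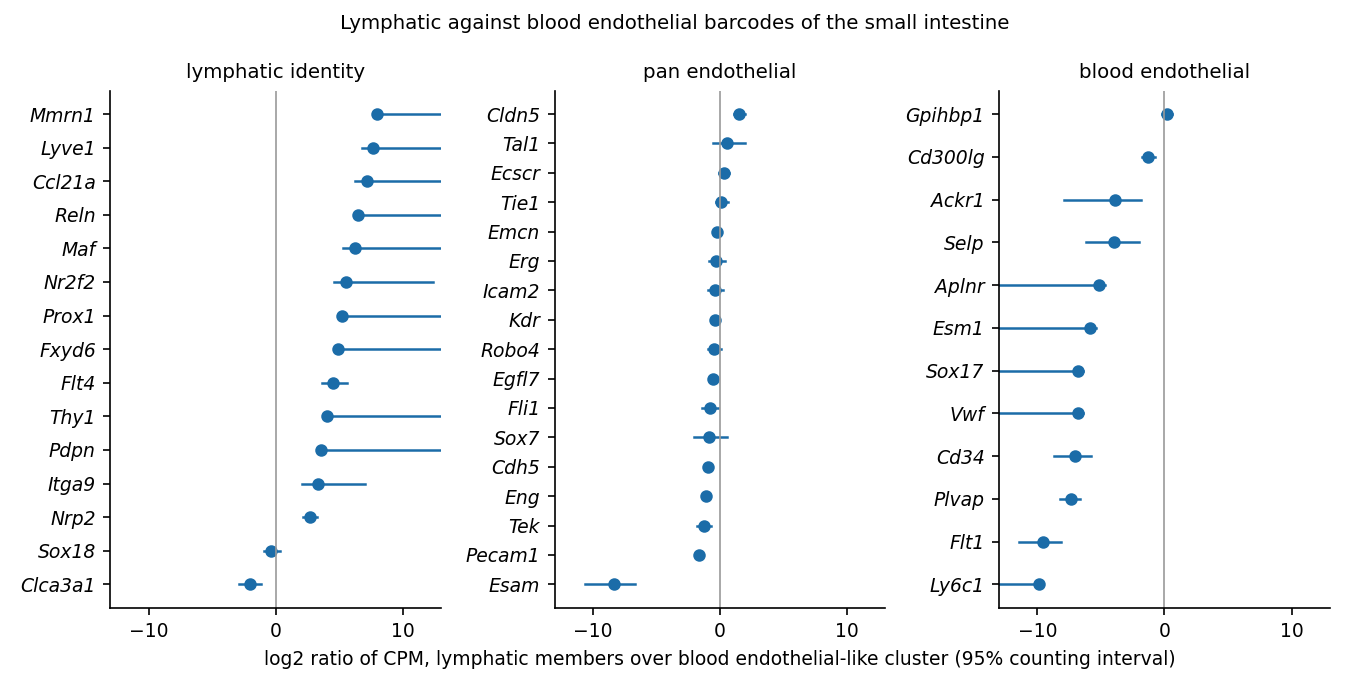
Log2 ratio of CPM (x axis), 334 lymphatic cells over the 39 blood endothelial-like barcodes of the small intestine, for the lymphatic, shared endothelial and blood endothelial lists, with points at the ratio (counts under 3 set to 3) and lines over the 95% counting interval, drawn to the edge where it is unbounded. Shared endothelial genes lie within 4-fold, as most of all measured genes do, except Esam (-8.31), while Mmrn1 (at least 8.0) and Ly6c1 (-9.83) mark the ends of the other lists.

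The same rule found 209 cells among 6188 kept barcodes of the large intestinal library (3.38%), and 195 of them lay in its lymphatic endothelial-like cluster. With 1 library for each intestine, tissue and library cannot be told apart, and no test was made. Of 8988 measured genes 131 (1.46%) were at least 4-fold higher in the small intestinal cells and 302 (3.36%) lower, or 160 and 257 of 9002 with the cells inside the lymphatic clusters. Higher genes made up 30.3% of these and 49.5% with each barcode's CPM averaged. Epithelial genes led both ends, with Defa24 (at least 14.54), Defa30 (at least 12.98) and Lyz1 (11.56, 10.01 to 13.84) higher and Mptx1 (-11.21, -13.49 to -9.66), Retnlb (-10.17, -13.80 to -8.90) and Car1 (-6.67 or lower) lower. Other small intestinal barcodes held the first 3 at 61455, 16214 and 7944 CPM. Other barcodes of the large intestine held Mptx1, Retnlb and Car1 at 5745, 2652 and 1097 CPM. Among the 302 lower genes, 244 (80.8%) stood higher, by any amount, in the other large intestinal barcodes than in the large intestinal cells of the rule. Among the 131 higher genes, 35 (26.7%) stood higher, by any amount, in the other small intestinal barcodes than in the small intestinal cells. The same shares over all measured genes are not given here, so nothing is read from the size of these counts. The part of free or epithelial RNA in these genes was not tested.

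Genes were therefore followed that differed between intestines and were also at least 4-fold above the other barcodes of their own library. There were 66 such genes on the small intestinal side (91 with the cells inside the lymphatic clusters, 64 in both sets) and 25 on the large intestinal side (14, with 12 in both). All 15 lymphatic identity genes lay within 4-fold between intestines (median 0.72), as did most genes, given the shares past 4-fold above. Of the 1227 genes that were higher in the small intestinal cells than in their library, 684 were also higher in the large intestinal cells than in theirs, where 799 genes were. These 684 are 55.7% of the small and 85.6% of the large intestinal set. Only 1066 of the 1227 were measured in the large intestinal comparison, so the others could not be shared. Of all measured genes, 14.1% were higher in the small and 8.99% in the large intestinal cells than in the other barcodes of their library.

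Cyp26b1 headed the small intestinal side, with 885 UMIs against 1 (527 against 0.845 CPM, a log2 ratio of 7.70, 6.80 to 14.59). After thinning to 1000 UMIs it was seen in 125 of 338 small intestinal cells (37.0%) and in 0 of 184 large intestinal cells. Dhrs3 (1.82 inside the clusters) and Rarb (1.5) were also more abundant in the small intestinal cells. Blood endothelial clusters of the 2 libraries held Cyp26b1 at 496 CPM in the small intestine, against 253 CPM in the large (0.97, 0.52 to 1.40), and Dhrs3 with an interval that included 0 (0.04, -0.84 to 0.86). The large intestinal blood endothelial cells thus held the Cyp26b1 transcript, of which the lymphatic cells of that library had 1 UMI.

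The next highest ratio was that of Cyp1b1. It had 378 against 2 UMIs (6.47, 5.2 to 10.11) and Cyp1a1 had 52 against 0 (at least 3.61). Both encode enzymes that oxidize hormones and foreign compounds. The lipid list had 3 genes at least 4-fold higher in the small intestinal cells and 2 lower of 17 measured (median 0.44), beside 1.46% and 3.36% of all genes, and 3 higher and 0 lower of 15 with averaged CPM. Fabp4 was at 409 against 9.29 CPM (5.46, 4.61 to 6.47), Lpl at 107 against 21.1 CPM and Cd36, a fatty acid receptor that was not 4-fold above the other barcodes, had 61 UMIs against 6. The lower genes were Pparg (-2.55, -3.99 to -1.33) and Apoe (-2.13), which were at -1.75 and -0.03 with the cells inside the clusters. In the blood endothelial clusters Fabp4 was at 9876 and 8264 CPM (0.26, 0.17 to 0.35), while Lpl (3.36, 1.66 to 5.43) and Cd36 (1.70, 1.42 to 1.98) were again higher in the small intestine. Adamts15, a matrix protease gene, had 156 against 3 UMIs (5.2, 3.62 to 7.49), Sema7a, a membrane semaphorin of immune cells, 257 against 7 (4.69, 3.63 to 6.02) and the matrix gene Fn1 562 against 33 (3.59, 3.08 to 4.14).

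Of 12 measured niche factors, 3 were at least 4-fold higher in the small intestinal cells (Wnt2, Rspo3 and Il33) and 3 lower, where 1.46% and 3.36% of all genes were. With averaged CPM the list held 2 higher and 2 lower of 11 (median -0.22). The lower ones were Grem1 (1 against 28 UMIs, -3.73, -10.67 to -2.72), the growth factor gene Igf1 (4 against 21 UMIs, -2.90) and Ccn3 (12 against 37 UMIs, -2.13). With the cells inside the clusters Grem1 was at -3.78 and Igf1 at -2.97 (-6.72 to -1.47), the latter below the level for measurement, and Ccn3 was at -1.97 (-3.07 to -0.98). Wnt2 was at 157 against 13.5 CPM (3.54, 2.81 to 4.37), Rspo3 at 263 against 52.4 CPM (2.33, 1.94 to 2.73), Il33 at 376 against 78.6 CPM (2.26, 1.94 to 2.59) and Reln at 1455 against 684 CPM (1.09, 0.97 to 1.21). Among interferon and class I genes 4 of 18 were past 4-fold, namely Gbp2, Gbp4, Ifit3 and Irf7 (median of the list 1.17), and with the cells inside the clusters Ifit3 was at 1.87. The count was 2 of 18 with averaged CPM, 3 without mitochondrial and ribosomal protein genes and 5 with median-of-ratios scaling. Against their own libraries 11 of 18 such genes were higher in the small and 2 of 16 in the large intestinal cells, where 14.1% and 8.99% of all measured genes were higher. In the blood endothelial clusters the intervals of all 4, Gbp2 (0.39, -0.44 to 1.17), Gbp4 (0.52, -0.16 to 1.16), Ifit3 (-0.80, -2.80 to 0.75) and Irf7 (0.20, -1.18 to 1.42), included 0. Other genes of the list differed there in both directions, with Iigp1 (0.66, 0.30 to 1.01), Psmb9 (0.92, 0.17 to 1.64) and B2m (0.35, 0.11 to 0.58) higher in the small intestine and Ifitm3 (-0.57, -0.74 to -0.40), Ifitm2 (-0.80, -1.04 to -0.57) and Psmb8 (-0.51, -1.05 to -0.0027) lower. Of 10 measured cell cycle genes 6 were at least 4-fold lower in the small intestinal cells (median -2.27), but 0 of 7 with averaged CPM (median -1.16). Of 19 immediate early and heat shock genes 0 were past 4-fold (median -0.52). The chaperone genes Hspa8 and Hsp90aa1 were lower in the small intestinal cells inside the clusters (-1.51 and -1.57) and also between the blood endothelial clusters (-1.48 and -1.74).

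**Figure D4:**
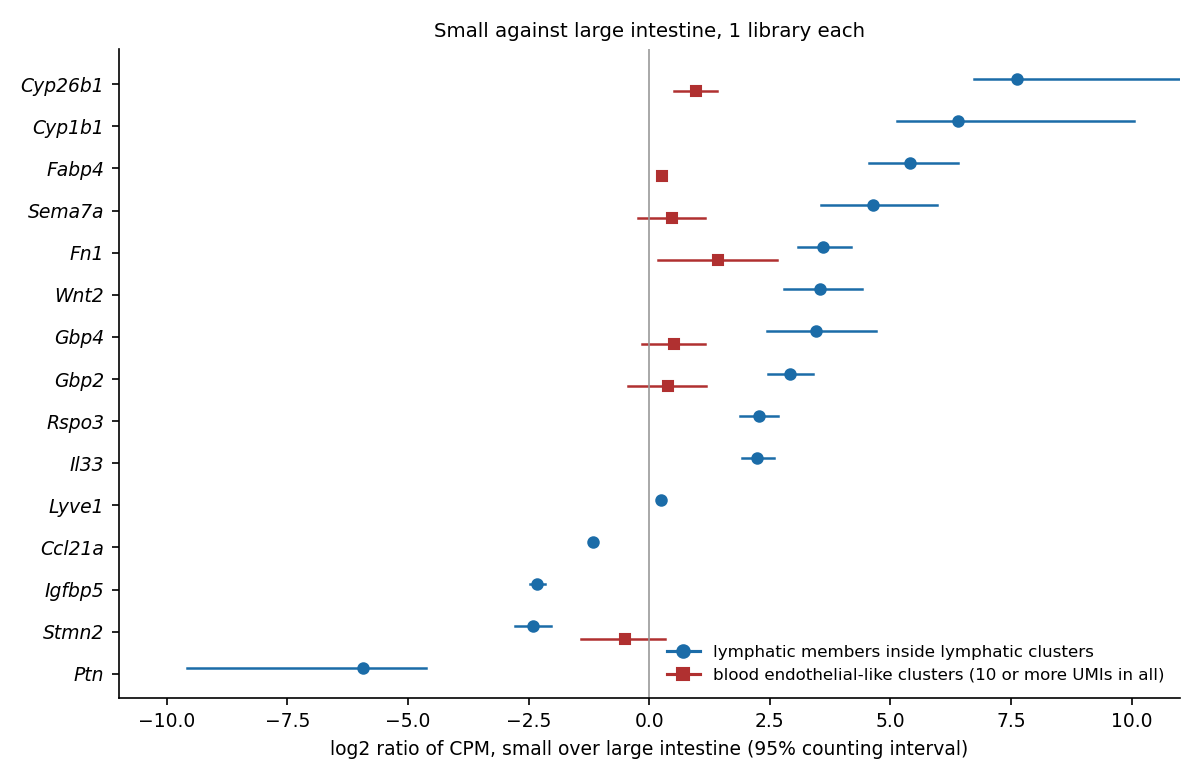
Log2 ratio of CPM, small over large intestine (x axis), for 15 genes in the lymphatic cells inside the lymphatic clusters (334 and 195 cells, circles) and in the blood endothelial-like clusters (39 and 92 barcodes, squares, where 10 or more UMIs were seen), with lines over the 95% counting interval. Cyp26b1 and Fabp4 are far higher in small intestinal lymphatic cells (7.63 and 5.40) but differ by 0.97 and 0.26 in blood endothelial cells.

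On the large intestinal side, Ptn, which encodes the growth factor pleiotrophin, had 5 against 129 UMIs (-5.19, -6.84 to -3.93). The interferon-induced gene Ifitm1 had 2 against 83 (-5.29, -8.95 to -3.98), the sodium-calcium exchanger gene Slc8a1 10 against 73 (-3.37) and Pkhd1l1 20 against 116 (-3.04). Igfbp5, which binds insulin-like growth factors, was at 256 against 1376 CPM (-2.42, -2.58 to -2.27), and Ccl21a at 2285 against 5064 CPM (-1.15). Per cell, thinned to 1000 UMIs, Ccl21a had a median of 2 and a highest value of 18 UMIs in the small intestine, and a median of 5 and a highest value of 33 in the large, so the 2 ranges overlapped. Several genes of this side left it with the cells inside the clusters. The leukocyte gene Rgs1 went from -3.40 to 0.44, and Ccl3 and Ms4a6d lost nearly all of their UMIs. Of the 209 large intestinal cells, 7 lay among macrophage or dendritic-like cells.

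Variation among the small intestinal cells was read in 325 cells of the lymphatic clusters thinned to 1000 UMIs, as the Fano factor (variance over mean) of 366 genes with a mean of at least 0.3 UMIs. The median Fano factor was 1.13. Defensin genes and other epithelial genes headed the order, with Defa24 at 15.96, and so did Malat1 (12.87), a nuclear RNA. Defa24 was also abundant in barcodes that should lack it, with a median of 0.272% of UMIs in Cd79a-positive barcodes against 0.347% in the lymphatic cells. Ccl21a (2.83, from 0 to 16 UMIs) was the first gene of the lymphatic list, at rank 11. Igfbp5 (2.36, seen in 18.5% of cells), Ifitm3 (2.23), Isg15 (2.19), Fgl2 (2.01) and Iigp1 (1.79) also stood in the first 20 ranks. Lyve1 (1.73), Mmrn1 (1.56) and Cyp26b1 (1.55) were at ranks 22, 34 and 35. Flt4 and Prox1 (both 1.14) were close to the median of the genes.

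The 2 lymphatic clusters differed in depth and in epithelial transcripts. The larger one took 262 of the 347 cells (median 4053 UMIs, 4.18% mitochondrial), and Ifi27l2a, Lcn2 and Ifitm3 led it over the other. The smaller one took 72 cells (median 1415 UMIs, 12.4% mitochondrial), led by the epithelial genes Fabp6 (5.92), Cldn3 (5.09) and Agr2 (4.76). Ccl21a was at 3276 CPM in the larger and 784 CPM in the smaller cluster. Lyve1 (4533 and 2068 CPM), Flt4 (1704.5 and 735 CPM) and Mmrn1 (5634 and 3241 CPM) were also lower in the smaller cluster. Reln (1922 and 1437 CPM) and Prox1 (791 and 592 CPM) differed less. The part of depth and epithelial RNA in these differences was not tested. Over all 347 cells, the 8 genes of the epithelial marker list were all detected and took 0 to 1.99% of a cell's UMIs (median 0.0360%), against 0 to 5.69% (median 0.549%) in the other barcodes, and 10 cells held 3 or more UMIs of Epcam. Sub-clustering of the 347 cells gave groups of 221, 118 and 8 cells, led by Zfp277, Tpbgl and Grasp, by defensin genes, and by the macrophage complement genes C1qc and C1qa. Few cells of the 118 held most Defa24 UMIs, since 2 Paneth-like barcodes had 94757 of the group's 98468. The 949 UMIs of Defa23, the first gene of that group, lay in 16 cells. Defa30 and Defa29, also among its leading genes, were seen in 116 and 64 cells.

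The Visium sections gave a view of the tissue that the choice of cells did not use. Each spot covers a small region with several cells, so a spot with a Mmrn1 UMI holds lymphatic RNA together with that of its neighbours. Section 1 had 194 such spots and 1900 without, and section 2 had 239 and 2332. Ccl21a was at 183 against 13.9 CPM in spots with and without Mmrn1 in section 1 and at 198 against 12.3 CPM in section 2, log2 ratios of 3.72 (3.50 to 3.94) and 4.01 (3.81 to 4.21). Of the 15 genes with the highest ratios in the sorted cells, Mmrn1 apart, 8 of 14 had intervals above 0 in both sections, 1 in a single section (Apba2, -0.06 and 1.62) and 5 in neither (Hoxd9, Sh3gl3, Susd4, Ube2ql1 and Wnt2, with 1 to 18 UMIs in these spots). Among the 8 were Adgrg3 (3.44 and 3.48), Tbx1 (3.49 and 4.06), Ackr2 (3.71 and 3.25) and Gpr182 (2.57 and 2.80), with 7 to 27 UMIs each. The share of all genes with intervals above 0 in both sections is not given here, so nothing is read from the size of the count.

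The marker genes were alike in sign in both sections. Flt4 (2.68 and 2.86), Reln (2.54 and 3.44), Lyve1 (2.37 and 3.75) and Prox1 (1.24 and 1.98) were higher where Mmrn1 was seen. Lyve1 differed between the technical duplicates beyond counting error (1.76 to 2.96 and 3.27 to 4.24). Rspo3 was at 13.3 against 6.49 CPM and at 18.9 against 6.32 CPM (1.04 and 1.58), the Il33 ratios were 1.5 and 1.68, and Cyp26b1 was at 8.74 against 3.56 CPM and 10.5 against 3.60 CPM (1.30 and 1.54). Wnt2 gave 1 UMI in such spots of each section and Sema7a had 0.18 and -0.59, so neither was seen to follow Mmrn1 at this depth. Maf, also made by other cells, was lower in these spots (-0.84 and -0.86).

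Neighbouring tissue moved with the same spots. The trophocyte and crypt mesenchyme gene Grem1, nearly absent from the sorted lymphatic cells, was higher in Mmrn1 spots (1.15 and 1.13), as was the muscle gene Acta2 (0.70 and 0.78), and the epithelial gene Epcam was lower (-0.61 and -0.67). The stem cell gene Lgr5 had ratios of 0.32 (-0.36 to 0.94) and 0.82 (0.25 to 1.36). The part of neighbouring cells in the ratios of Rspo3, Il33 and Cyp26b1 was not tested.

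**Figure D5:**
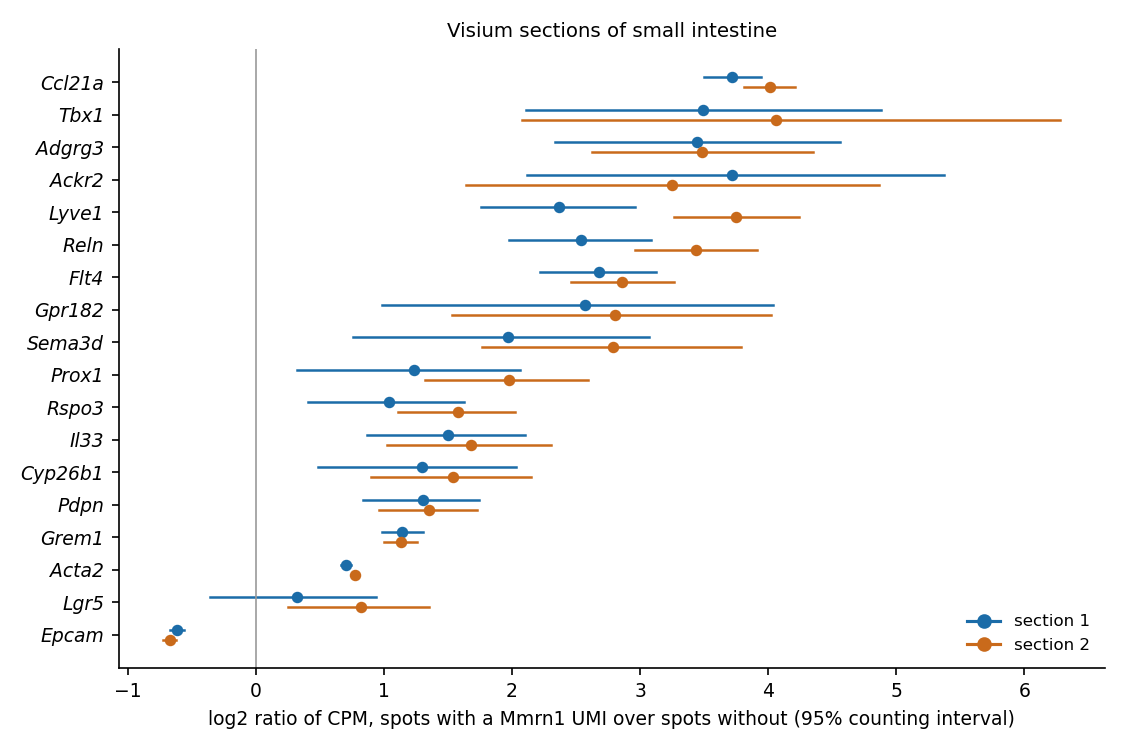
Log2 ratio of CPM (x axis) between small intestinal Visium spots with a Mmrn1 UMI (194 and 239) and spots without (1900 and 2332), for 18 genes in sections 1 and 2, with lines over the 95% counting interval. Ccl21a lies at 3.72 and 4.01, and Epcam at -0.61 and -0.67.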

How the data were processed

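Per the file headers, the authors made the deposited counts of UMIs per gene and barcode with Cell Ranger 6.0.1 (single cells) and Space Ranger 1.2.1 (Visium). The submitters' processing notes name build mm10. The annotation release is not given in the sources used here. The files list called barcodes, with no normalization. The members, lists and comparisons were chosen with earlier results of these data known. Filters were applied as described in the report, and no barcode was removed as a doublet in the main values. UMIs were summed per group and scaled to CPM, and counts under 3 were set to 3 in log2 ratios. Intervals are exact at 95% (Poisson, ratio of 2 Poisson counts, Clopper-Pearson) and cover counting error only. Named genes were the 15 highest and 10 lowest ratios against the other barcodes, the 10 highest and 10 lowest against each other group (at least 50 UMIs in the higher group), and genes of 15 fixed lists, without mitochondrial, ribosomal protein, haemoglobin, sex-linked and unnamed genes. Genes named beyond that rule, such as those followed between intestines, were chosen after their values were seen. Clusters came from scanpy 1.11.5 (Leiden, 2000 variable genes, 30 components, 15 neighbours, resolution 1, seed 0), were named by 19 marker lists, and sub-clusters used 1000 genes, 15 components and resolution 0.5. The ratio step was tested on simulated data. Coordinates were matched to GRCm38.p6 by symbol for 26259 of 32285 gene IDs. Alternatives changed the filters, the rule, scaling, low-value filter, thinning depth, doublet removal, resolution and spot minimum. Organoid and large intestinal Visium libraries were not used here.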

Additional observations from a re-analysis of the deposited data

How the results depend on the processing

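The report rests on 1 library for each intestine and on technical duplicate sections, so its intervals hold no spread between animals. Depth limits genes near 10 CPM in 347 cells. No paired analysis was possible because no test was made and the sorted libraries have 1 sample each. Of 1147 recomputed values, 923 kept their direction and moved little, 216 moved and 8 changed sign. Asking for 1 Mmrn1 UMI gave 534 members with 261 genes higher and 50 lower than the other barcodes, and it turned Gip to 0.27, Reg1 to 0.42 and Lyz1 to 1.78. Lyz1, close to equal in the main values, also changed sign with at least 1000 genes (0.059), no limit on Cd79a (0.50), the highest Scrublet scores left out (0.070) and barcodes of 1 or 2 Mmrn1 UMIs left out of the others (0.58). Leaving out cells with a UMI of Epcam, Ptprc, Cd3e or Jchain kept 191 members. Median-of-ratios scaling gave 1017 genes lower than the others, and averaged CPM 151 genes lower than in the large intestine. A mean of at least 50 CPM left 512 higher and 208 lower against the others, 60 and 72 against the large intestine, and 183 and 233 against the blood endothelial-like barcodes. No filter gave 8464 and 1005 against the others and 513 lower than the large intestine. These counts move with the number of genes tested. Chosen after the data were seen, the blood endothelial-like cluster gave 216 genes higher in the 347 cells, and the cells of the lymphatic clusters turned Rgs1 to 0.44. Resolution 1 gave 10 sub-clusters. Other causes were not tested.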
